A study of Mus musculus with 2 samples.

Results

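The genes described here were 36 genes of synaptic vesicles, transmitter release and transmitter synthesis, taken by symbol from the 28692 genes listed for the *LHX4::GFP* retina. All 36 were found in more than 3 of the cells kept, as were 16673 genes in all. They comprised vesicle membrane proteins, synaptotagmins, SNARE proteins and the factors that recycle them, complexins, active zone and priming proteins, a photoreceptor calcium channel with its calcium-binding partner, transmitter transporters and enzymes, and granins.

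A neuron releases transmitter when a vesicle fuses with the plasma membrane. A transporter in the vesicle membrane loads the transmitter, active zone scaffolds hold and prime the vesicle, and a complex of a vesicle SNARE with plasma membrane SNAREs drives fusion. Synaptotagmins sense calcium and complexins hold the assembled SNARE complex until calcium arrives. Photoreceptors and bipolar cells release glutamate continuously from ribbon synapses and use their own set of complexins and syntaxin, whereas amacrine and ganglion cells use conventional active zones. Most amacrine cells release GABA or glycine, and ganglion cells release glutamate.

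The retinas came from E14.5 embryos that carried the BAC transgene Tg(Lhx4::EGFP)KN199Gsat/Mmucd, in which *Lhx4* regulatory sequence drives EGFP, at this stage in early cones. Both groups carried the transgene. Embryos of 2 litters were pooled into 1 suspension and sorted into GFP+ and GFP− cells, and 1 droplet library of 3′ ends was made from each gate. There was thus no replicate of either gate, no test between gates or cell classes was possible, and every interval given here covers counting error at 95% only.

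The GFP+ library held 3728 cells and 16010591 UMIs (unique molecular identifiers, each standing for 1 captured transcript). The GFP− library held 4445 cells and 46778924 UMIs. After the filters on genes per cell and mitochondrial share, 3689 GFP+ cells with a median of 3894 UMIs and 3389 GFP− cells with a median of 8848 UMIs were kept, and 15 barcodes occurred in both libraries among them. Levels are given as UMIs per 1000000 UMIs of the same cells (CPM), with exact Poisson intervals. Because only 3′ ends were counted and depth differed, levels were compared between cells for 1 gene at a time and not between genes.

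Cells were placed into classes by marker UMIs that included none of the 36 genes. The cone class (*Gngt2*, *Gnb3*, *Pdc*, *Gnat2*, *Pde6h*) held 3512 of the GFP+ cells, or 95.2%, and 55 GFP− cells. In the GFP− library the ganglion class (*Pou4f1*, *Pou4f2*, *Pou4f3*, *Rbpms*, *Sncg*) held 399 cells, the class of amacrine and horizontal cells (*Tfap2a*, *Tfap2b*, *Tfap2c*, *Ptf1a*, *Prdm13*, called the amacrine class from here on) held 381 cells and the progenitor class held 1974 cells. Some genes left out of the rule followed the labels and others did not. *Thrb*, the cone thyroid hormone receptor, stood at 619 CPM in the GFP+ cones, 6.83 CPM in the ganglion class and 3.01 CPM in the amacrine class, and *Isl1*, a ganglion cell factor, at 0.207, 1017 and 18.5 CPM in the same order. *Onecut2*, an amacrine and horizontal check gene, stood at 770 CPM in the amacrine class, 150 CPM in the ganglion class and 213 CPM in the cones. *Meis2* and *Tfap2d* of the same list went the other way, at 899 CPM in the cones and 13.9 CPM in the amacrine class, and at 11.5 CPM in the ganglion class and 1.51 CPM in the amacrine class. The 6 genes of that list summed to 1170 CPM in the cones and 942 CPM in the amacrine class, and the 5 genes that checked progenitors to 1868 CPM in the amacrine class and 1318 CPM in progenitors. *Pax6* made up 1764 CPM of this amacrine sum and 580 CPM of this progenitor sum. *Lhx2*, *Nr2e1*, *Mki67* and *Top2a* followed the labels, at 78.7, 4.90, 7.91 and 12.8 CPM in the amacrine class. In progenitors they stood at 295, 99.7, 77.0 and 267 CPM.

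Markers of other cells were not spread evenly. In the GFP+ cones 7 rod genes summed to 34.1 CPM, of which *Nrl*, found in 11.1% of these cells, made up 31.7 CPM. There 6 microglia genes summed to 27.4 CPM, of which *C1qa* made up 27.0 CPM. *Cldn5* stood at 274 CPM in the amacrine class while the other endothelial markers *Pecam1*, *Cdh5* and *Flt1* stood at 2.26, 0 and 0 CPM, and the 6 stress genes of the ATF4 type summed to 234 CPM in the GFP+ cones, 49.9 CPM in the ganglion class and 37.3 CPM in the amacrine class. The 600 cones that held at least 2 UMIs of the stress genes were then left out. Of 29 members, 7 were at least 2-fold higher and 14 lower in ganglion cells than in cones, beside 10.2% and 28.2% of all genes. Amacrine cells had 5 higher and 14 lower of 30, beside 9.84% and 22.9%. With all cones both comparisons gave 5 higher and 14 lower of 31. The shares of all genes were then 10.1% and 28.8% for ganglion cells and 9.73% and 23.5% for amacrine cells. The parts of *Nrl*, *C1qa* and *Cldn5* in the results were not tested. The limit of 3500 genes per cell removed 549 of 948 ganglion cells, so values without it are given beside several ganglion results that moved.

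Between the gates, the GFP+ library was higher by at least 2-fold for 22 of the 34 members with at least 20 UMIs in both libraries together, and lower by at least 2-fold for 7. That was 64.7% and 20.6% of the members, beside 22.4% and 15.5% of the 14166 genes compared in the same way. The median log2 ratio was 1.63 over the members and 0.30 over all genes compared. A sum over a gate does not tell apart more cells with a transcript from more transcript per cell.

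The members higher in the GFP+ library included *Cabp4*, whose 69.9-fold ratio (11.8 to 2836) rested on 1 GFP− UMI. *Slc17a6*, which encodes the vesicular glutamate transporter VGLUT2, stood at 127 CPM in the GFP+ and 3.12 CPM in the GFP− library, 40.6-fold higher (33.0 to 50.5). *Cplx3*, the complexin of ribbon synapses, stood at 361 and 9.47 CPM, 38.1-fold higher (33.8 to 43.1), and *Syp*, the vesicle protein synaptophysin, at 304 and 8.17 CPM, 37.2-fold higher (32.7 to 42.5). *Chgb*, *Cplx2*, *Sv2b*, *Snap25* and *Pclo* followed, between 13.1- and 23.0-fold higher.

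The 7 members lower in the GFP+ library were *Slc32a1*, *Syt13*, *Gad2*, *Syt4*, *Sv2a*, *Syt11* and *Rims1*. *Slc32a1*, the vesicular transporter of GABA and glycine, was listed with 3 UMIs or 0.194 CPM in GFP+ cells and stood at 5.22 CPM in GFP− cells, 27.0-fold lower (9.06 to 132). *Gad2*, which makes GABA, stood at 1.74 and 22.6 CPM, 13.0-fold lower (8.85 to 19.9). *Rims1*, an active zone scaffold, had no UMI in the GFP+ library and 0.897 CPM in the GFP− library, at least 4.64-fold lower when 3 UMIs are taken as the limit for a library at 0.

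**Figure D1:**
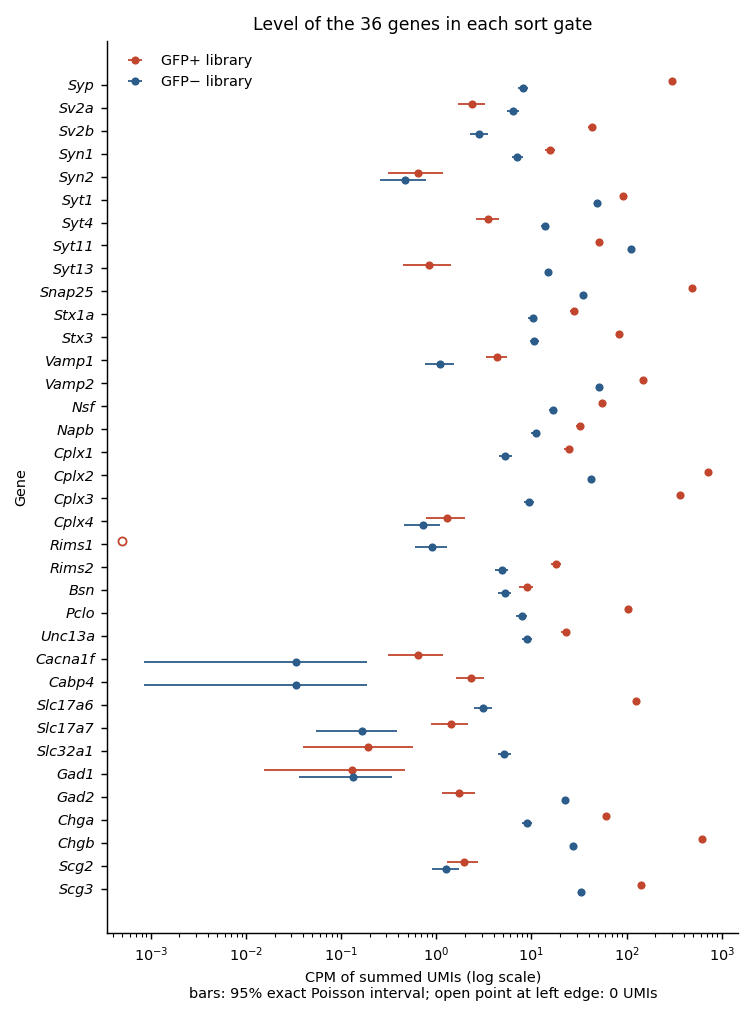
Level of each member in the GFP+ and GFP− libraries in CPM on a log axis, with 95% Poisson intervals for counting error, 1 library per gate. The open point at the left edge is *Rims1* in the GFP+ library with 0 UMIs. *Slc17a6*, *Cplx3* and *Syp* lie 37.2- to 40.6-fold apart with GFP+ on the right, and *Syt13*, *Slc32a1* and *Gad2* lie 13.0- to 27.0-fold apart with GFP− on the right.

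The GFP− side of these ratios came from different cells for different genes. The ganglion class gave 86.2% of the GFP− UMIs of *Syt13*, 86.2% of those of *Slc17a6* and 81.6% of those of *Syt4*, although it held 11.8% of the cells. The amacrine class gave 79.6% of those of *Slc32a1*, 55.4% of those of *Chgb* and 48.4% of those of *Cplx3*, with 11.2% of the cells. Progenitors gave 78.8% of the *Vamp1* and 57.1% of the *Stx3* UMIs, with 58.2% of the cells. The GFP− cones, 1.62% of the cells, gave 20.7% of the *Cplx3*, 17.9% of the *Syp*, 17.6% of the *Sv2b* and 12.5% of the *Chgb* UMIs. Unclassified cells gave 32.6% of those of *Cplx2*. A gate ratio therefore compared cones with another mixture of cells for each gene, and the classes are set side by side below.

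Against the GFP+ cones, the ganglion class was lower by at least 2-fold for 14 and higher for 5 of 31 members with enough UMIs. That was 45.2% and 16.1% of the members, beside 28.8% and 10.1% of 12673 genes, and the median log2 ratio was −0.97 over the members and −0.45 over all genes. This −0.97 was the bound shared by *Cplx4* and *Slc17a7*, which had no UMI in ganglion cells, and not a measured ratio. With at least 100 UMIs over both classes the median was −0.59 over the members and −0.45 over all genes. Without the limit of 3500 genes, 9 of 33 members were higher and 15 lower in ganglion cells, beside 13.5% and 28.0% of all genes. The median was then −0.10 over the members and −0.42 over all genes. The members thus lay above the median of all genes there, and below it with the limit. By mean UMIs per cell 13 of 31 were higher and 10 lower, beside 46.8% and 7.45% of all genes. The amacrine class was lower for 14 and higher for 5 of 31 members, again 45.2% and 16.1%, beside 23.5% and 9.73% of 12513 genes, with medians of −0.38 and −0.31. By mean UMIs per cell 8 members were higher and 10 lower there, beside 25.4% and 11.2% of all genes. Cones came from 1 library and the other neurons from the other, so gate, library and depth cannot be told apart from cell class in these ratios, and the 55 GFP− cones are used further on.

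**Figure D2:**
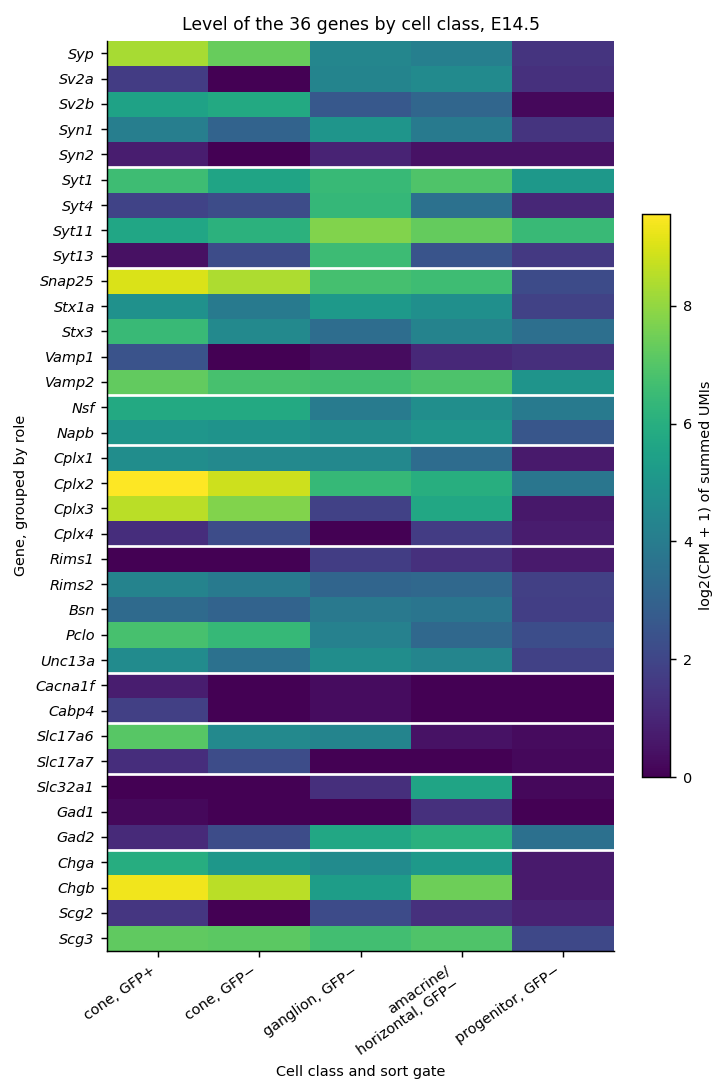
Heat map of log2(CPM + 1) for the 36 members (rows, with white lines between roles) in the GFP+ cones, GFP− cones, ganglion, amacrine and progenitor classes (columns). Brighter colors are higher levels. In their rows, both cone columns are brightest for *Syp*, *Snap25*, *Cplx2*, *Cplx3* and *Chgb*, the GFP+ cone column for *Slc17a6*, the ganglion column for *Syt4* and *Syt13*, and the amacrine column for *Slc32a1*.

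The vesicle membrane proteins were split between cones and the other neurons. *Syp* stood at 316 CPM (307 to 325) in the GFP+ cones, 19.8 CPM (15.8 to 24.5) in the ganglion class, 16.6 CPM (12.0 to 22.2) in the amacrine class and 1.70 CPM (1.16 to 2.41) in progenitors. The cones stood 16.0-fold (12.9 to 20.05) above ganglion cells and 19.1-fold (14.2 to 26.3) above amacrine cells. The levels of ganglion and amacrine cells overlapped in their intervals, and both lay above progenitors.

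The paralogs *Sv2a* and *Sv2b*, which encode vesicle glycoproteins, had opposite orders. *Sv2b* stood at 44.3 CPM in the cones, 5.18 CPM in ganglion cells and 7.91 CPM in amacrine cells. *Sv2a* stood at 2.21 CPM (1.51 to 3.12) in the cones, 18.8 CPM (14.9 to 23.4) in ganglion cells and 22.6 CPM (17.2 to 29.1) in amacrine cells. *Sv2a* was thus 8.52-fold higher in ganglion cells (5.59 to 13.3) and 10.2-fold higher in amacrine cells (6.55 to 16.2), and its cone level overlapped that of progenitors, 1.48 CPM (0.976 to 2.16). The ganglion level of *Sv2a* was 37.3 CPM (34.0 to 40.7) without the gene limit, above the amacrine cells. *Syn1*, which encodes synapsin, a tether of vesicles, stood at 16.0 CPM in the cones, 30.6 CPM in ganglion cells and 13.9 CPM in amacrine cells, a ganglion excess of 1.92-fold (1.53 to 2.39) over cones that became 41.8 CPM in ganglion cells without the gene limit. Its paralog *Syn2* did not exceed 0.942 CPM in any of the 4 classes.

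The 250 bases before the start of 4 members are printed. *Syp* and *Sv2b* lay far above the other neurons in cones, *Syn1* did not, and *Cplx3* had the highest ratio of cones to ganglion cells. *Syp*, *Sv2b* and *Syn1* also held a match to the letters below. The windows of *Cplx2*, *Chgb*, *Pclo* and *Slc17a6*, also higher in cones, held no match and are not printed. Nor is that of *Gad1*, which held a match. The printed set therefore does not show how matches go with cone levels. The sequences are RefSeq promoters on GRCm38.p6, given 5′ to 3′ on the gene's strand. Capitals mark TAATCC or its reverse complement GGATTA, the core bound by homeodomain factors such as OTX2 and CRX, or TTCAGCACC, the left part of the element bound by the neuronal gene repressor REST. *Syp* lies at chrX:7638330-7638579 on the plus strand, *Sv2b* at chr7:75309263-75309512 and, for another start, chr7:75302610-75302859 on the minus strand, *Syn1* at chrX:20920919-20921168 on the minus strand and *Cplx3* at chr9:57606282-57606531 on the minus strand.
Syp: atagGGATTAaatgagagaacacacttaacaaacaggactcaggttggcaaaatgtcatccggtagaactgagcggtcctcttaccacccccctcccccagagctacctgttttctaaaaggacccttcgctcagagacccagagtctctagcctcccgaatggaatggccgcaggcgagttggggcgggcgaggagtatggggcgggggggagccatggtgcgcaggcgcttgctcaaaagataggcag
Sv2b, first start: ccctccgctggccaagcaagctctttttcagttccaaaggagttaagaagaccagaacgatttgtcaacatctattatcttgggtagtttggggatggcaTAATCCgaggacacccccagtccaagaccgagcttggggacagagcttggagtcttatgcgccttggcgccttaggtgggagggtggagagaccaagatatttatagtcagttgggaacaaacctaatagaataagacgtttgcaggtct
Sv2b, other start: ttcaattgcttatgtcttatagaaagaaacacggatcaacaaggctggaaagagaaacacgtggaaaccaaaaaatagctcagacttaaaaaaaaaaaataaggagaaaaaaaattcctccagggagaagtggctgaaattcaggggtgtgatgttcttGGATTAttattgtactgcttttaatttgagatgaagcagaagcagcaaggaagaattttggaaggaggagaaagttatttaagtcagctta
Syn1: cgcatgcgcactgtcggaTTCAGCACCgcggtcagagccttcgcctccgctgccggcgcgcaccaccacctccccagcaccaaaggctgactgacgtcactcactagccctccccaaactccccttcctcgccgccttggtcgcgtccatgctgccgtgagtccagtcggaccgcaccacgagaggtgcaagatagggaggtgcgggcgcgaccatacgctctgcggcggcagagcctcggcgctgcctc
Cplx3: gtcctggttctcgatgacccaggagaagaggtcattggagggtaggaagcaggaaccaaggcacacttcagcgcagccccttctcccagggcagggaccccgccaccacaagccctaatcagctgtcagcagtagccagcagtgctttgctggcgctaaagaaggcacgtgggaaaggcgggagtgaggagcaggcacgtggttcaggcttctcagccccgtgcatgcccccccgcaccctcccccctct

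Over both strands, TAATCC was found in 3 of the 29 members with a promoter in the table, *Syp*, *Sv2b* and *Gad1*, or 4 of 35 promoters, and in 6.25% of all 32851 promoters. TTCAGCACC was found before *Syn1* alone among the members and in 0.301% of all promoters, and the right part of that element was found before no member and in 0.0974% of all promoters. The table held 4 starts of *Sv2b*, and the 2 printed were the ones with a match. *Cplx3* had none of these letters in the window. A match describes the sequence and is not a measured binding site.

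Of the synaptotagmins, 3 of 4 were higher by at least 2-fold in ganglion cells than in cones, beside 10.1% of all genes. In amacrine cells 2 of the 3 with enough UMIs were higher, beside 9.73%. None was lower, beside 28.8% of all genes in ganglion cells and 23.5% in amacrine cells. A role holds too few genes for its count to be set against these shares, here and below. *Syt13*, a synaptotagmin that lacks calcium-binding residues, stood at 92.3 CPM (83.4 to 102) in the ganglion class and 4.52 CPM (2.34 to 7.89) in the amacrine class, and at 0.346 CPM (0.112 to 0.806), or 5 UMIs, in the GFP+ cones. The ganglion level was 267-fold (114 to 827) above cones and 20.4-fold (11.6 to 39.9) above amacrine cells. In progenitors *Syt13* stood at 1.98 CPM (1.38 to 2.73), above the cones.

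*Syt4*, which is found on dense-core vesicles, was also highest in ganglion and next in amacrine cells, but its cone level lay above the 1.10 CPM of progenitors. It stood at 80.5 CPM (72.2 to 89.5) in ganglion cells, 10.9 CPM (7.31 to 15.7) in amacrine cells and 2.83 CPM (2.03 to 3.84) in cones, and was 28.4-fold (20.5 to 40.3) higher in ganglion cells than in cones. Without the gene limit, *Syt4* and *Syt13* stood at 161 and 150 CPM in ganglion cells, since the largest cells carried more of both. *Syt11* was present everywhere, at 212 CPM in ganglion cells, 156 CPM in amacrine cells, 88.3 CPM in progenitors and 48.7 CPM in cones, the lowest of the 4. *Syt1*, the calcium sensor of fast release, differed least, at 94.2 CPM in cones, 85.2 CPM in ganglion cells and 121 CPM in amacrine cells, with 33.2 CPM in progenitors. Its ratio of ganglion cells to these GFP+ cones was 0.905 (0.804 to 1.02). Against the GFP− cones, which held 13 *Syt1* UMIs, ganglion cells were higher, at a log2 ratio of 0.86, or 1.14 without the gene limit.

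Among the SNAREs, 3 of 5 were lower by at least 2-fold in both classes than in cones, beside 28.8% and 23.5% of all genes. None was higher, beside 10.1% and 9.73%. *Snap25*, a plasma membrane SNARE, stood at 512 CPM (500 to 523) in cones, 106 CPM (96.9 to 117) in ganglion cells, 94.9 CPM (83.6 to 107) in amacrine cells and 3.51 CPM (2.70 to 4.48) in progenitors. The cones stood 4.81-fold (4.37 to 5.30) above ganglion cells, and ganglion cells stood at 188 CPM when cells with 3500 genes or more were counted.

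The syntaxins differed from each other. *Stx3*, the syntaxin of ribbon synapses, stood at 86.8 CPM (82.1 to 91.7) in cones, 9.66 CPM (6.93 to 13.1) in ganglion cells, 18.5 CPM (13.7 to 24.4) in amacrine cells and 10.1 CPM (8.74 to 11.7) in progenitors, so that the ganglion and progenitor levels could not be told apart. *Stx1a*, the syntaxin of conventional synapses, stood at 27.4, 35.1 and 26.4 CPM in cones, ganglion and amacrine cells, and neither ratio to cones exceeded 1.28-fold. *Vamp2*, the main vesicle SNARE, stood at 153, 98.9 and 118 CPM in the same order and differed by less than 2-fold. The ganglion level of *Vamp2* was 142 CPM without the gene limit, above the amacrine cells. Its paralog *Vamp1* was rare, at 4.49 CPM in cones with 1 UMI in ganglion cells and 3 in amacrine cells, a cone excess over ganglion cells of 19.1-fold (3.31 to 765).

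Of the recycling factors, 1 of 2 was at least 2-fold lower in both classes than in cones, beside 28.8% and 23.5% of all genes. *Nsf*, the ATPase that takes spent SNARE complexes apart, stood at 55.5 CPM in cones, 14.6 CPM in ganglion cells and 25.2 CPM in amacrine cells, 3.80-fold (2.93 to 5.0) and 2.20-fold (1.71 to 2.87) higher in cones. *Napb*, its adaptor beta-SNAP, stood at 31.7, 24.7 and 30.9 CPM, and neither ratio to cones reached 2-fold.

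Of the complexins, 2 of 4 were lower by at least 2-fold in ganglion cells than in cones, beside 28.8% of all genes. In amacrine cells 3 of 4 were lower, beside 23.5%. *Cplx3* stood at 375 CPM (365 to 385) in GFP+ cones, 52.0 CPM (43.7 to 61.4) in the amacrine class, 2.59 CPM (1.29 to 4.63) in the ganglion class and 0.549 CPM (0.263 to 1.01) in progenitors. No interval of these 4 levels overlapped another. Cones stood 145-fold (80.8 to 290) above ganglion cells and 7.21-fold (6.09 to 8.60) above amacrine cells, and amacrine cells 20.1-fold (10.9 to 41.1) above ganglion cells.

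*Cplx2*, a complexin of conventional synapses, was also higher in cones than in the other neurons. It stood at 749 CPM in cones, 82.9 CPM in ganglion cells, 61.8 CPM in amacrine cells and 12.3 CPM in progenitors, 9.04-fold (8.13 to 10.1) higher in cones than in ganglion cells and 12.1-fold (10.4 to 14.2) higher than in amacrine cells. *Cplx1* stood at 24.9 CPM in cones and 21.2 CPM in ganglion cells, a ratio of 1.18 (0.932 to 1.5) that was turned without the gene limit, at 33.9 CPM in ganglion cells, and at 9.42 CPM in amacrine cells, 2.65-fold (1.77 to 4.15) below cones. *Cplx4*, the other ribbon complexin, was nearly undetected at this age, at 1.38 CPM in cones, 2.26 CPM in amacrine cells and 0 of 4246466 UMIs in ganglion cells.

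**Figure D3:**
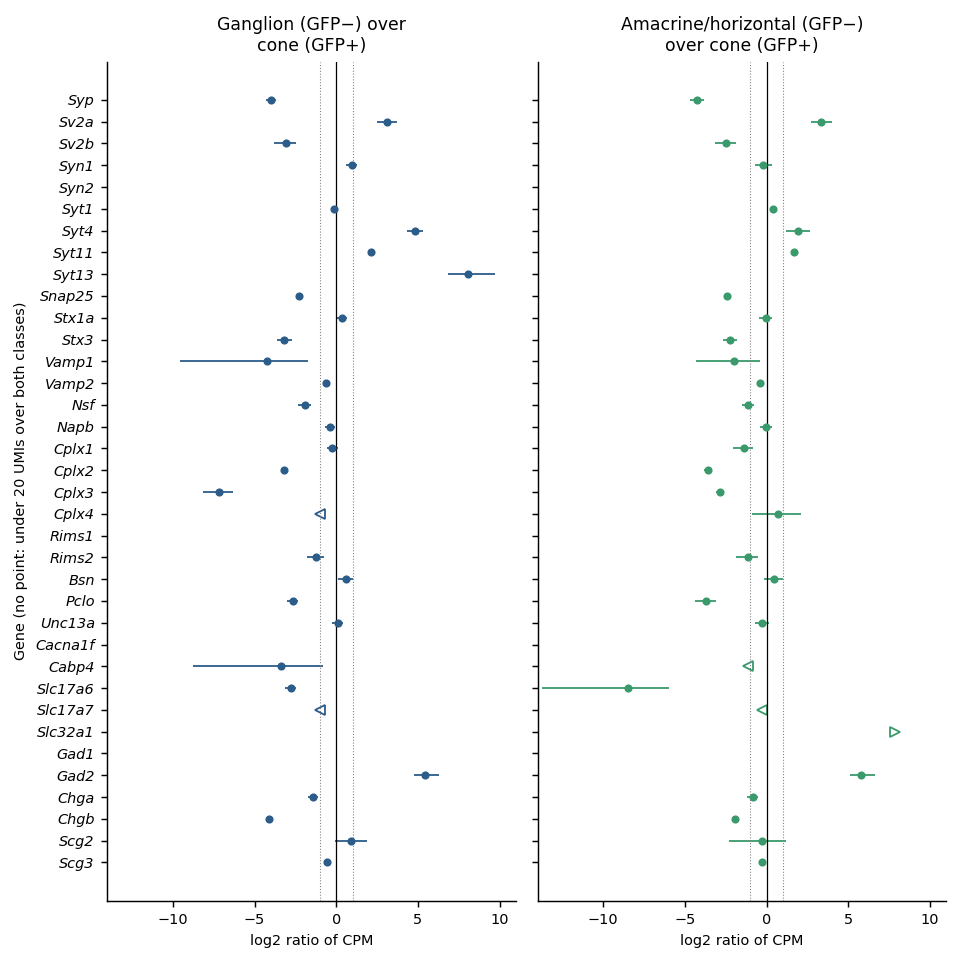
Log2 ratio of the ganglion class and of the amacrine class to the GFP+ cones for each member, with 95% exact intervals for counting error and dotted lines at 2-fold. Open triangles are bounds where 1 side had 0 UMIs, and members without a point had under 20 UMIs. Both classes lie left of 0 for *Syp*, *Snap25*, *Stx3*, *Cplx2*, *Pclo* and *Chgb* and right of 0 for *Sv2a*, *Syt4*, *Syt11* and *Gad2*. *Cplx3* lies 145-fold below cones in ganglion cells and 7.21-fold below in amacrine cells, and *Slc32a1* has a bound for amacrine cells and no point for ganglion cells.

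Of the active zone and priming genes, *Pclo* and *Rims2* were lower by at least 2-fold in both classes than in cones. *Pclo*, the scaffold piccolo, stood at 108 CPM (103 to 114) in cones, 17.2 CPM (13.5 to 21.6) in ganglion cells and 8.29 CPM (5.19 to 12.5) in amacrine cells, 6.29-fold (4.97 to 8.06) and 13.0-fold (8.59 to 20.9) higher in cones. Its partner bassoon, *Bsn*, did not share this difference, at 8.92, 13.4 and 12.1 CPM.

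Of the RIM genes, *Rims2* was highest in cones and *Rims1* had too few UMIs for a ratio to cones, with 10 in ganglion and 4 in amacrine cells. *Rims2* stood at 18.5 CPM (16.3 to 20.8) in cones, 7.77 CPM (5.35 to 10.9) in ganglion cells and 8.29 CPM in amacrine cells, whereas *Rims1* was listed at 0 in 14469631 cone UMIs, which allows up to 0.207 CPM, and stood at 2.35 CPM (1.13 to 4.33) in ganglion cells. On the scale of mean UMIs per cell the *Rims2* ratio of ganglion cells to cones was reversed, at 0.12 on the log2 scale. *Unc13a*, the priming factor MUNC13-1, stood at 23.3, 24.7 and 19.2 CPM in cones, ganglion and amacrine cells, with a ganglion to cone ratio of 1.06 (0.845 to 1.33).

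Both members tied to the photoreceptor calcium channel had few UMIs. The auxiliary subunit of this channel, *Cacna2d4*, is not among the members and is given with the wider lists. *Cacna1f*, the pore-forming subunit, had 10 UMIs in 3512 GFP+ cones, or 0.691 CPM (0.331 to 1.27). *Cabp4*, the calcium-binding protein that tunes the channel, had 36 UMIs, or 2.49 CPM (1.74 to 3.44). In the ganglion class each had 1 UMI, and in the amacrine and progenitor classes neither had any. For *Cabp4* the progenitors were at least 15.1-fold lower than the cones.

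The transmitter genes divided the 3 neuron classes. *Slc17a6* stood at 133 CPM (127 to 139) in GFP+ cones, 19.1 CPM (15.1 to 23.7) in ganglion cells, 0.377 CPM (1 UMI) in amacrine cells and 0.219 CPM in progenitors. Cones stood 6.95-fold (5.57 to 8.80) above ganglion cells, and ganglion cells 50.6-fold (8.84 to 2025) above amacrine cells. *Slc17a7*, which encodes VGLUT1, the transporter of mature photoreceptors, had 20 UMIs in cones, or 1.38 CPM (0.844 to 2.13), none in ganglion or amacrine cells and 3 in progenitors.

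*Slc32a1* was the mirror image. It stood at 47.1 CPM (39.2 to 56.1) in the amacrine class, 1.41 CPM (0.519 to 3.08) in the ganglion class and 0.165 CPM in progenitors, with no UMI in GFP+ cones. The amacrine level was 33.3-fold (14.9 to 92.5) above ganglion cells and at least 227-fold above cones, taking 3 UMIs as the limit for the cones.

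*Gad2* did not follow *Slc32a1*. It stood at 65.2 CPM (55.8 to 75.6) in the amacrine class and at 51.6 CPM (44.97 to 58.9) in the ganglion class, a ratio of 1.26 (1.03 to 1.55), with 10.4 CPM (8.94 to 12.0) in progenitors and 1.17 CPM (0.684 to 1.88) in cones. Without the gene limit the ganglion level was 32.6 CPM (29.6 to 35.8). *Gad1*, the other enzyme that makes GABA, had 4 UMIs in the amacrine class, 2 in cones and none in ganglion cells, too few for a ratio.

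Granins, the cargo proteins of dense-core vesicles, were at their highest in cones, apart from *Scg2*. *Chgb* stood at 653 CPM (640 to 666) in cones, 171 CPM (156 to 188) in amacrine cells, 38.4 CPM (32.7 to 44.8) in ganglion cells and 0.603 CPM (0.301 to 1.08) in progenitors, with 4 intervals that did not overlap. Cones stood 17.0-fold (14.6 to 19.99) above ganglion cells and 3.81-fold (3.47 to 4.20) above amacrine cells. *Chga* stood at 61.5, 33.9 and 23.3 CPM in cones, amacrine and ganglion cells, and its 2.64-fold difference from ganglion cells came under 2-fold without the gene limit (log2 −0.96). *Scg3* stood at 147, 122 and 100 CPM in the same order, less than 2-fold apart, and *Scg2* did not exceed 3.53 CPM.

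Ganglion and amacrine cells came from the same library, so that gate does not enter their comparison, although their depth differed at medians of 11075 and 6759 UMIs. Of 27 members compared, 6 were higher by at least 2-fold in ganglion cells (22.2%, beside 7.05% of 10683 genes) and 3 were lower (11.1%, beside 7.36%). The 6 were *Slc17a6*, *Syt13*, *Syt4*, *Cplx1* (2.25-fold), *Syn1* (2.20-fold) and *Pclo* (2.07-fold), and the 3 were *Slc32a1*, *Cplx3* and *Chgb* (4.46-fold). Without the gene limit 10 of 30 members were higher in ganglion cells and 4 lower, beside 10.3% and 8.36% of all genes.

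Against progenitors, the GFP+ cones were higher by at least 2-fold for 27 of 31 members, or 87.1%, beside 28.7% of 13582 genes. *Chgb* stood 1082-fold (605 to 2169) above progenitors, *Cplx3* 683-fold (371 to 1425), *Slc17a6* 604-fold (236 to 2220) and *Sv2b* 269-fold (91.7 to 1309). *Gad2* and *Syt13* were lower in cones, by 8.83-fold (5.37 to 15.5) and 5.72-fold (2.24 to 18.7), which was 6.45% of the members beside 15.0% of all genes. *Sv2a* and *Syt11* were within 2-fold.

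The cone class was highest among the 4 classes for 20 members, the ganglion class for 10 and the amacrine class for 6. The interval of the highest class lay above that of the next for 17, 4 and 2 of these. Cones held 14469631 UMIs beside 4246466 and 2655200 in the ganglion and amacrine classes, so their intervals were narrower at the same level. This count was not made over all genes. Of all genes compared, 28.8% were at least 2-fold higher in cones than in ganglion cells and 23.5% than in amacrine cells. Progenitors were highest for no member.

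The 55 GFP− cones allowed cones and ganglion cells to be compared inside 1 library, on 276456 cone UMIs. Of 26 members, 9 were lower by at least 2-fold in ganglion cells (34.6%, beside 16.1% of 9722 genes) and 7 were higher (26.9%, beside 11.5%). By mean UMIs per cell 11 were higher and 6 lower, beside 44.9% and 3.08% of all genes, and with TMM scaling, which evens out composition, 10 were higher and 8 lower, beside 17.4% and 9.05%. *Cplx3* stood at 213 CPM (162 to 275) in GFP− cones and was 82.4-fold (42.9 to 174) lower in ganglion cells, *Sv2b* 10.5-fold (5.05 to 21.1), *Chgb* 9.71-fold (7.51 to 12.5), *Syp* 8.05-fold (5.46 to 11.7), *Cplx2* 5.45-fold (4.41 to 6.71) and *Snap25* 3.13-fold (2.47 to 3.92) lower. *Syt13*, *Syt4* and *Gad2*, with 1 UMI each in the GFP− cones, were 25.5-fold (4.55 to 1011), 22.3-fold (3.97 to 882) and 14.3-fold (2.53 to 566) higher in ganglion cells. These 9 named genes had the same direction against GFP+ cones, and *Snap25* came under 2-fold from the GFP− cones without the gene limit (log2 −0.70). Also lower in ganglion cells were *Pclo*, *Nsf* and *Stx3* (log2 −2.27, −1.89 and −1.17). Also higher were *Syn1*, *Syt11*, *Stx1a* and *Unc13a* (log2 2.08, 1.63, 1.28 and 1.19). Of these, *Syn1*, *Stx1a* and *Unc13a* had 2, 4 and 3 UMIs in the GFP− cones and did not reach 2-fold against the GFP+ cones.

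Of the other 5 members that were lower in ganglion cells than in GFP+ cones, *Rims2* (7.77 CPM beside 14.47 CPM in GFP− cones), *Chga* (23.3 beside 32.6 CPM) and *Slc17a6* did not differ by 2-fold from the GFP− cones, and *Vamp1* and *Cabp4* had too few UMIs. *Slc17a6* stood at 21.7 CPM (7.96 to 47.2), or 6 UMIs, in the GFP− cones and 19.1 CPM in ganglion cells, so that the GFP+ cones stood 6.11-fold (2.80 to 16.7) above the GFP− cones. *Stx3* was also apart, 4.0-fold (1.83 to 10.9) higher in GFP+ than in GFP− cones. In all, 5 of 29 members were higher by at least 2-fold in the GFP+ cones (17.2%, beside 10.9% of 12102 genes) and 2, with 1 UMI each in the GFP− cones, were lower (6.90%, beside 5.85%). *Snap25*, *Cplx2*, *Chgb*, *Cplx3* and *Syp* were 1.54- to 1.98-fold higher in GFP+ cones, *Scg3* stood at 147 and 141 CPM, and *Sv2b* at 44.3 and 54.3 CPM. The stress genes summed to 234 CPM in GFP+ and 79.6 CPM in GFP− cones.

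Shares of cells were compared after each cell was thinned to 3200 UMIs, which left 2962 GFP+ cones, 399 ganglion, 380 amacrine and 1965 progenitor cells. GFP− progenitors, with a median of 9256 UMIs before thinning, served as the reference for the ganglion and amacrine classes. Those classes had medians of 11075 and 6759 UMIs. How much of the progenitor signal was free RNA was not tested. The GFP+ cones, with a median of 3873 UMIs, came from another library, in which 23 progenitors with a median of 8480 UMIs were found. *Cplx2* was found in 86.1% of thinned cones, 17.5% of ganglion cells, 15.3% of amacrine cells and 3.77% of progenitors, and unthinned in 89.7%, 43.4%, 26.5% and 9.83%. *Chgb* was found in 80.2%, 12.0%, 37.1% and 0.153% of the thinned cells, and unthinned in 86.6%, 30.1%, 56.4% and 0.507%. Among the 23 GFP+ progenitors *Cplx2* was found in 8.70% after thinning (1.07 to 28.0) and in 26.1% before it (10.2 to 48.4), and *Chgb* in none after thinning, which allows up to 13.0%, and in 4.35% before it (0.110 to 21.9). The cone shares lay above these intervals.

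Shares of *Slc32a1*, *Gad2* and *Syt13*, which were higher in other neurons than in cones, follow. *Slc32a1* was found in 13.2% of thinned amacrine cells, 0.251% of ganglion cells and no cone or progenitor, and unthinned in 23.4%, 1.0%, 0% and 0.101%. *Gad2* was found in 15.0% of amacrine and 14.3% of ganglion cells beside 3.82% of progenitors and 0.405% of cones, and unthinned in 29.1%, 32.8%, 8.11% and 0.399%. *Syt13* was found in 20.1% of thinned ganglion cells, 1.32% of amacrine cells, 0.814% of progenitors and 0.101% of cones, and unthinned in 39.6%, 2.1%, 1.72% and 0.142%. In the 23 GFP+ progenitors *Slc32a1* and *Syt13* had no UMI and *Gad2* was found in 1 cell before thinning, so a background for the low cone shares could not be set closely.

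*Slc17a6* was found in 28.7% of thinned cones, 4.51% of ganglion cells, 0.263% of amacrine cells and 0.102% of progenitors, and unthinned in 32.2%, 15.0%, 0.262% and 0.203%. *Cplx3* was found in 64.4%, 0.251%, 11.8% and 0.254%, and unthinned in 71.5%, 2.51%, 22.6% and 0.405%. At equal depth the ganglion share of *Cplx3* lay under the 0.752% that 3 cells make up, so it could not be told apart from that of progenitors. The amacrine share exceeded that of progenitors. By CPM the ganglion level, 2.59, lay above the 0.549 of progenitors. In the GFP+ progenitors *Cplx3* was found in 4.35% after thinning (0.110 to 21.9) and in 21.7% before it (7.46 to 43.7), below the cones, and *Slc17a6* in none. *Syt11* was found in 23.6% of thinned progenitors and 14.3% of cones, so that it marked no neuron class.

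**Figure D4:**
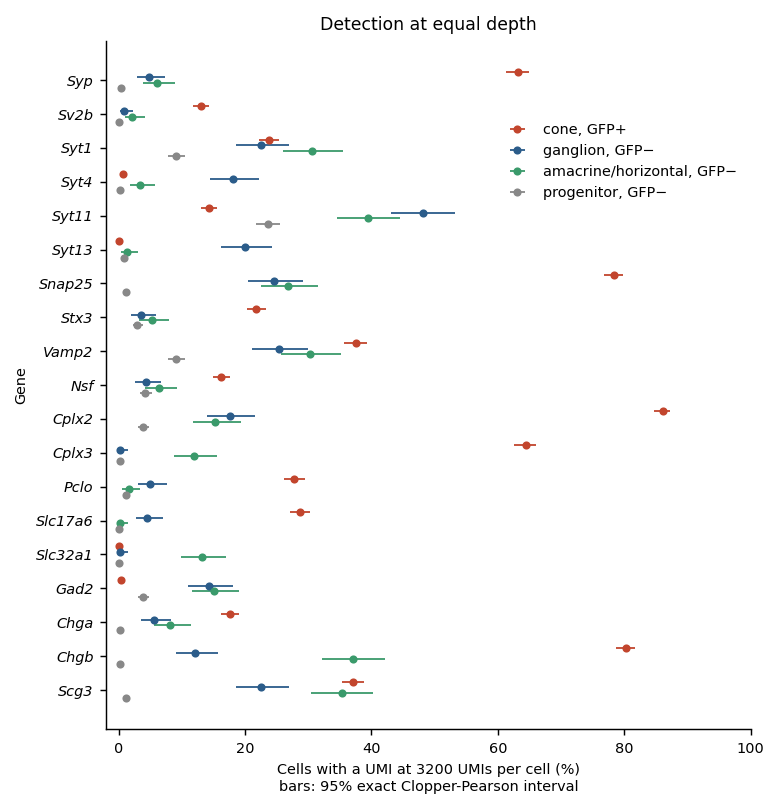
Share of cells with at least 1 UMI, in percent with exact Clopper-Pearson intervals, for the 19 members that reached 10% of cells in at least 1 class, after thinning every cell to 3200 UMIs. Cones lead for *Cplx2*, *Chgb*, *Snap25*, *Cplx3* and *Syp* (63.1% to 86.1%), and ganglion cells for *Syt11*, *Syt13* and *Syt4*.

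Counted together at 3200 UMIs, a GFP+ cone held transcripts of a median of 6 members (quartiles 5 and 8), a GFP− cone of 5 (3 and 6), a ganglion cell of 3 (1 and 4), an amacrine cell of 3 (2 and 4) and a progenitor of 1 (0 and 1). No member was found in 48.1% of progenitors, 7.77% of ganglion cells, 3.95% of amacrine cells and 0.0338% of GFP+ cones. Without the gene limit the ganglion median was 4 (2 and 5). Summed over the 36 genes, the level was 3706 CPM in GFP+ cones, 2286 CPM in GFP− cones, 1246 CPM in ganglion cells (1648 CPM without the limit), 1285 CPM in amacrine cells and 239 CPM in progenitors. The sum is led by a few genes of high level, among them *Cplx2*, *Chgb*, *Snap25*, *Cplx3* and *Syp* in cones. A list of 10 pan-neuronal genes summed the other way, to 2623 CPM in cones, 17507 CPM in ganglion cells and 8235 CPM in amacrine cells. *Map1b* made up 1490 CPM of the cone sum, beside 1787 CPM in ganglion and 559 CPM in amacrine cells. *Elavl4* stood at 72.4 CPM in cones and 66.3 CPM in amacrine cells. The other genes of the list were lower in cones than in amacrine cells. *Gap43*, *Nefl* and *Nefm* of this list also served as check genes of ganglion cells.

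**Figure D5:**
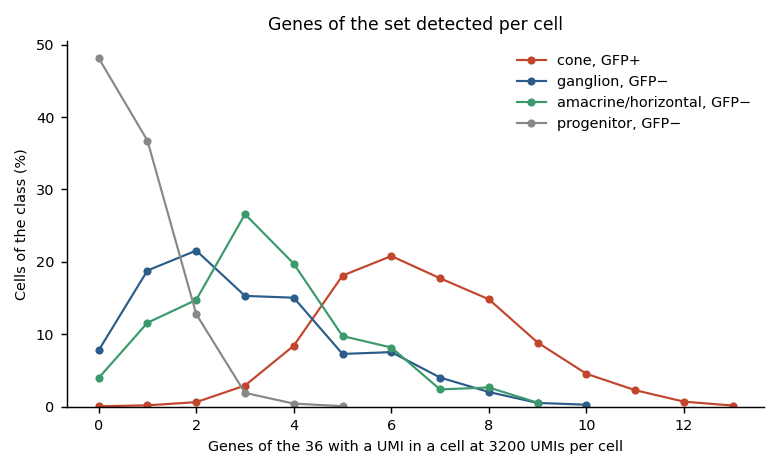
Number of the 36 members found per cell after thinning to 3200 UMIs (x axis) against the share of cells in percent (y axis) for GFP+ cones, ganglion, amacrine and progenitor cells. Medians are 6, 3, 3 and 1.

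Within the ganglion class, cells were divided by *Atoh7*, the factor that is present as ganglion cells arise and is lost as they mature. The 222 cells with and 177 cells without an *Atoh7* UMI had medians of 10514 and 11583 UMIs. Of 25 members, 7 were lower by at least 2-fold with *Atoh7* (28.0%, beside 6.54% of 9480 genes) and 1 was higher (4.0%, beside 3.10%). *Sv2a* stood at 5.62 CPM with and 34.6 CPM without *Atoh7*, 6.16-fold lower (3.37 to 12.2), *Syt4* at 32.4 and 138 CPM, 4.25-fold lower (3.28 to 5.57), *Slc17a6* at 8.65 and 31.5 CPM, 3.64-fold lower (2.17 to 6.38), *Syt13* at 44.99 and 149 CPM, 3.31-fold lower (2.64 to 4.18), and *Snap25* at 59.7 and 162 CPM, 2.72-fold lower (2.22 to 3.35). *Syn1* (2.34-fold) and *Stx3* (2.07-fold) were the others.

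*Gad2* was the 1 member higher with *Atoh7*, at 70.1 and 29.5 CPM, 2.38-fold (1.75 to 3.28). Without the gene limit, in 375 and 573 cells, 9 of 29 members were lower with *Atoh7* (31.0%, beside 6.82% of 11694 genes) and 1 was higher (3.45%, beside 4.01%). There *Gad2* stood at 55.8 and 19.0 CPM, 2.94-fold (2.40 to 3.6), while *Slc17a6* stood at 13.3 and 32.2 CPM and *Snap25* at 92.5 and 244 CPM. Ganglion cells with 3500 genes or more, set against those with fewer, were higher by at least 2-fold for 4 of 29 members (13.8%, beside 4.73% of 11694 genes) and lower for 1 (3.45%, beside 2.15%). *Syt4*, *Sv2a*, *Syn2* and *Snap25* were 2.13- to 2.49-fold higher and *Gad2* was 2.20-fold lower. Among 948 thinned ganglion cells without the gene limit, *Slc17a6* was found in 2 of 94 cells with *Gad2* (2.13%, 0.259 to 7.48) and in 59 of 854 without it (6.91%, 5.30 to 8.82), a pair chosen after its values were seen. The intervals of these shares overlapped.

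In the amacrine class, the 347 cells with and 34 cells without *Ptf1a*, the factor that sets amacrine and horizontal fate, differed by at least 2-fold in 8 of 25 members, 6 of them lower with *Ptf1a* (24.0%, beside 5.03% of 8562 genes) and 2 higher (8.0%, beside 8.97%). *Snap25* stood at 79.5 and 250 CPM, 3.15-fold lower (2.31 to 4.22) with *Ptf1a*, and *Syp*, *Syn1*, *Stx1a*, *Nsf* and *Cplx1* were 2.20- to 4.26-fold lower. The 2 higher were *Cplx3*, 2.19-fold (0.978 to 6.06), and *Pclo*, 2.09-fold (0.335 to 86.3) on 1 UMI without *Ptf1a*, and both intervals included 1. *Slc32a1* at 45.5 and 62.5 CPM and *Gad2* at 65.0 and 66.7 CPM did not pass 2-fold. *Gad2* was found in 14 of 44 thinned cells with *Slc32a1* (31.8%, 18.6 to 47.6) and in 59 of 336 without it (17.6%, 13.6 to 22.1), also a pair chosen after its values were seen.

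The cones were divided by *Prdm1*, the factor present in young photoreceptors, into 2544 cells with and 968 cells without a UMI, at medians of 3957 and 3673 UMIs. Here 1 of 29 members was higher by at least 2-fold with *Prdm1* (3.45%, beside 1.18% of 12071 genes) and none was lower (beside 0.754%). That member was *Slc17a7*, at 1.76 and 0.272 CPM (1 UMI). *Stx3* at 78.1 and 112 CPM and *Slc17a6* at 125 and 156 CPM were lower with *Prdm1* by 1.44-fold (1.28 to 1.62) and 1.26-fold (1.14 to 1.39). *Snap25*, *Cplx3*, *Syp* and *Scg3* differed by at most 1.05-fold.

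The wider machinery was read from 5 lists of related genes. Between the gates, of the 51 other vesicle and fusion genes 48 had enough UMIs, and 11 were higher and 14 lower by at least 2-fold in the GFP+ library, where 22.4% and 15.5% of all genes were. Of 32 other active zone genes 13 were higher and 6 lower, of 17 of 22 other transmitter genes 5 were higher and 6 lower, of 10 of 11 other dense-core vesicle genes 1 was higher and 4 lower, and of 32 of 42 transmitter receptors and scaffolds 13 were higher and 6 lower. Their median log2 ratios were 0.12, 0.51, −0.86, −0.68 and 0.42 in that order, all below the 1.63 of the 36 members. The members and the lists were chosen with earlier results of these data known, so no conclusion is drawn from this difference.

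*Cacna2d4*, the auxiliary subunit of the photoreceptor calcium channel, stood at 33.1 and 0.266 CPM, 124-fold higher (62.7 to 290) in the GFP+ library. *Doc2b*, a calcium sensor of release, stood at 96.5 and 1.89 CPM, 50.9-fold higher (39.1 to 67.6), *Unc13c* at 18.8 and 0.665 CPM, 28.3-fold higher (18 to 47.1), and the glutamate transporter *Slc1a2* at 144 and 6.21 CPM, 23.1-fold higher (19.9 to 27.0). Among receptors, *Chrnb4*, a subunit of nicotinic acetylcholine receptors, was 8.45-fold higher. Only genes of the higher side are named here. More genes were lower than higher among the vesicle and fusion, transmitter and dense-core genes (14 and 11, 6 and 5, 4 and 1). The active zone genes and the receptors each had 13 higher and 6 lower.

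Against the cones, 16 of 46 other vesicle and fusion genes were higher by at least 2-fold in ganglion cells and 10 lower, and 6 of 9 other dense-core vesicle genes were higher and 1 lower, where 10.1% and 28.8% of all genes were. Of the other active zone genes 7 of 28 were higher and 8 lower. Other transmitter genes had 3 of 15 higher and 5 lower, and receptors and scaffolds 4 of 28 higher and 9 lower. *Pcsk1n* and *Pcsk2*, of peptide hormone processing, were 8.58-fold (7.66 to 9.63) and 6.26-fold (4.98 to 7.91) higher in ganglion cells, opposite to *Chgb*. *Slc18a2*, the vesicular monoamine transporter, stood at 52.0 and 0.207 CPM, 251-fold higher (84.8 to 1227). In the amacrine class *Rab3b* stood at 129 CPM and *Syt5* at 61.8 CPM, beside 1.11 and 0.622 CPM in cones. In amacrine cells 9 of 42 vesicle and fusion genes were higher and 10 lower, beside 9.73% and 23.5% of all genes. Active zone genes had 8 higher and 8 lower of 29, and transmitter genes 2 and 5 of 13. Dense-core vesicle genes had 3 and 0 of 8, and receptors and scaffolds 9 and 7 of 27. Of the wider lists, only genes lower in cones are named here.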

How the data were processed

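The retina of E14.5 *LHX4::GFP* embryos was sorted into GFP+ and GFP− cells, and 1 library of each was prepared with a 10X 3′ kit. The authors deposited UMI counts per gene and cell, made with Cell Ranger 2.1.1 on mm10. The counts were whole numbers, not normalized. The members, the wider lists and the markers were chosen with earlier results of these data known. With those results known, the wider lists and class markers were written from general knowledge.

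The filters of the study's methods were applied (more than 250 and fewer than 3500 genes per cell, a mitochondrial fraction under 0.25, read as a fraction although the methods write it as a percent). Doublets were called with Scrublet at an expected rate of 0.03. It called 3 GFP+ and 55 GFP− cells, of which 2 and 0 passed the filters, and these were left in. A neuron class needed at least 3 UMIs of its 5 markers and at most 1 of each of the other 2 neuron lists. Progenitors needed at least 10 UMIs of their own list. UMIs were summed over cells and given as CPM. Ratios with at least 20 UMIs over both groups were counted as higher at 2 or more and as lower at 0.5 or less, with intervals from the exact conditional binomial distribution. Where a group had 0 UMIs, 3 UMIs set the bound, in place of a planned addition of 0.5 to both sums. UMIs from 1 cell are not independent, and cells are not replicates. All 36 members are described, and from each wider list some of the 3 highest and 3 lowest ratios are named, chosen after their values were seen, and the rest are not reported here.

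Depth ranged from 15503658 to 30094636 kept UMIs per library, so that a library with 0 UMIs of a gene allows 0.194 and 0.0997 CPM. The interval calculation was tested on simulated data. Promoter sequences came from a RefSeq table on GRCm38.p6, in which 29 of the 36 members were matched. Python 3.11.15, numpy 2.4.6, pandas 2.3.3, scipy 1.17.1, scanpy 1.11.5 and matplotlib 3.10.9 were used, and edgeR 4.0.16 in R 4.3.3 for the TMM alternative only. Other alternatives were no upper limit on genes, no doublets, stricter classes, other scalings, thinned cells, other UMI minimums and other ratios.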

Additional observations from a re-analysis of the deposited data

Results flagged for a closer look

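A few GFP+ cells outside the cone class carried members that the GFP+ cones lacked or held at a lower level, and they entered no comparison above. The 11 GFP+ cells of the amacrine class had *Slc32a1* at 39.2 CPM, *Gad2* at 91.5 CPM, *Sv2a* at 26.1 CPM and *Syt11* at 196 CPM. The 3 GFP+ cells of the ganglion class had *Syt13* at 217 CPM and *Syt11* at 248 CPM. These values were picked from those of all 36 members in both classes. The rule was a lower Poisson bound above the upper bound of the GFP+ cones, so that separation is not a result. These values rest on 76519 and 32313 UMIs. A limit of 3 UMIs stood at 39.2 CPM in the first class and 92.8 CPM in the second, and the 2 libraries shared 15 barcodes among the kept cells.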

How the results depend on the processing

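No paired analysis was possible because each gate had 1 library and its replicate number was only a name, so neither leaving out a replicate nor a test could be run. Of the values recomputed for single members, 1974 moved by less than their interval, 377 moved and 3 were reversed. Changing the UMI minimum or the ratio limit could not alter a member's ratio, so the 180 unchanged values of each such setting say nothing about stability. By mean UMIs per cell 44 values stayed, 133 moved and 3 were reversed. The reversals came with mean UMIs per cell, at log2 ratios of 0.12 for *Rims2* in ganglion cells over cones and −0.094 and −0.076 for *Cplx4* and *Scg2* in cones over progenitors. Of the counts of members, 125 stayed within 1.5 times and 21 did not. Percentages in brackets are the share of all genes past the same limit. With no upper limit on genes, 9 members (13.5%) were higher in ganglion cells than in cones and 10 (10.3%) higher than in amacrine cells. By mean UMIs per cell, 14 (7.20%) were higher in the GFP+ library, 13 (46.8%) in ganglion cells over cones, 8 (25.4%) in amacrine cells over cones and 11 (44.9%) in ganglion cells over GFP− cones. This scale moved the median of all genes from 0.30 to −0.78 between gates and from −0.45 to 0.92 for ganglion cells over cones, and TMM moved the same medians to −0.03 and −0.15 and that of cones over progenitors from 0.41 to 0.03. With thinned cells, 3 members (5.75%) were higher in ganglion than in amacrine cells and 1 (13.7%) was lower in cones than in progenitors. With at least 100 UMIs, 3 (6.80%) were higher in amacrine cells than in cones, 1 (12.6%) lower in cones than in progenitors and 4 (8.20%) lower in ganglion cells than in GFP− cones. With no minimum, 8 (13.3%) were higher in amacrine cells than in cones and 6 (9.58%) lower in ganglion than in amacrine cells. At a ratio of 1.5, 8 (15.5%) were higher in ganglion cells than in cones and 6 (18.1%) lower than in amacrine cells. At a ratio of 4, 14 (7.75%) were higher and 4 (9.01%) lower in the GFP+ library, 3 (4.88%) higher and 8 (9.03%) lower in amacrine cells over cones, 3 (2.62%) higher in ganglion over amacrine cells and 4 (3.04%) higher in ganglion cells over GFP− cones. Apart from fewer or more genes passing a changed limit, the cause was not tested. Leaving out the 600 cones with at least 2 UMIs of the stress list was added after seeing the data and gave 7 (10.2%) higher and 14 (28.2%) lower members in ganglion cells and 5 (9.84%) and 14 (22.9%) in amacrine cells. Depth limits members with few UMIs (*Cacna1f*, *Gad1*, *Slc17a7*, *Cplx4*, *Syn2*) and every value of the 55 GFP− cones.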
